A study of Mus musculus with 2 samples.

Results

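The genes described here are the receptor chains for the cytokines IL-1, IL-18 and IL-33, together with the adaptor and kinases that carry their signal. Of 10 listed genes (Il1r1, Il1r2, Il1rl1, Il1rap, Il18r1, Il18rap, Myd88, Irak1, Irak4 and Sigirr), 8 had at least 1 probe set that the platform annotation pairs with that gene alone. They had 17 probe sets, out of 45101 on the array. Il1rl1, the IL-33 receptor chain ST2, and the kinase gene Irak4 had no probe set under this rule and were not analysed here, so IL-33 reception is represented only by the shared chain Il1rap.

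The cells came from DEREG mice, in which green fluorescent protein (GFP) is made under control of the Foxp3 promoter, fused to a diphtheria toxin receptor that allows the cells to be depleted. Negative selection yielded CD4+ T cells, which flow cytometry then separated into CD4+GFP+FoxP3+ cells (GFP-positive) and CD4+GFPnegFoxP3neg cells (GFP-negative), at a purity stated as above 99%, and both groups carry the DEREG modification. Each population was hybridised to 1 Affymetrix Mouse Genome 430 array, so there is no replicate and no test, and all differences are between these 2 arrays. The organ, the mice's age and number and any treatment are not stated in the labels.

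Receptors of this family share an extracellular immunoglobulin fold and, with the exception of decoys, a cytoplasmic TIR domain. A ligand-binding chain (Il1r1 for IL-1, Il18r1 for IL-18, Il1rl1 for IL-33) pairs with an accessory chain (Il1rap for IL-1 and IL-33, Il18rap for IL-18). The joined TIR domains recruit Myd88, which assembles Irak4 and Irak1 and leads through Traf6 to NF-kappaB and MAP kinases. Il1r2 binds IL-1 but lacks a TIR domain and does not signal, and Sigirr dampens signalling by other receptors of the family. In CD4+ T cells the IL-1 receptor is known for its part in Th17 responses, the IL-18 receptor in Th1 responses, and ST2 in Th2 cells and in regulatory T cells of tissues.

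Values are MAS5 signals, an intensity per probe set on a linear scale. A signal floor of 58.8 was taken from genes restricted to other tissues, and lower signals were set to the floor before the log2 step. Each difference is the log2 signal of GFP-positive cells less that of GFP-negative cells, and a gene was represented by its brightest probe set, ranked by the average of its log2 signals on the arrays. The regulatory T cell markers listed for a check of the labels followed them. Foxp3 gave 504 on the GFP-positive array against 173 on the other, and Il2ra, Ctla4, Ikzf2 and Tnfrsf18 were also higher there. By their brightest probe sets, 2 of these 5 markers, Foxp3 and Tnfrsf18, were at least 2-fold higher. Il2ra (1.71-fold), Ctla4 (1.94-fold) and Ikzf2 (1.97-fold) were not, so a 2-fold limit also leaves out markers of the sorted population. All 5 measured CD4+ T cell markers (Cd3d, Cd3e, Cd3g, Cd4 and Cd28) were above the floor on both arrays. All 5 were lower on the GFP-positive array, with a median difference of -0.61. The sizes were unequal, from -0.02 for Cd3d and -0.17 for Cd3g to -0.69 for Cd4. The 3′ to 5′ signal ratio of beta-actin, a measure of how complete the labelled transcripts are, was 5.30 on the GFP-positive array against 3.57 on the other. For Gapdh it was 9.27 against 6.24. The part of this imbalance in the differences below was not tested.

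No measured gene of the receptor family was found to differ by 2-fold between GFP-positive and GFP-negative cells, although the value of Il1rap is only a lower bound. All 8 measured genes were above the floor on at least 1 array, and 0 were higher and 0 lower by at least 2-fold in GFP-positive cells. Over all 10672 genes above the floor, 1.91% were at least 2-fold higher and 1.81% at least 2-fold lower. In sign, 3 family genes were higher in GFP-positive cells (Il18r1, Il18rap and Il1rap) and 5 lower (Il1r1, Il1r2, Sigirr, Myd88 and Irak1), with a median difference of -0.34 beside -0.01 over all genes. The signs of Il18rap and Irak1 depend on the probe sets used. At a 1.5-fold limit, Il18r1 was higher and Il1r1 and Irak1 were lower, where 9.40% and 8.0% of all genes passed in these directions. With all probe sets counted, 12 of the 17 were above the floor, 5 with a higher and 7 with a lower signal in GFP-positive cells and a median of -0.17. None of the 12 reached 2-fold, a limit that 4.15% of all 18174 probe sets above the floor passed.

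**Figure D1:**
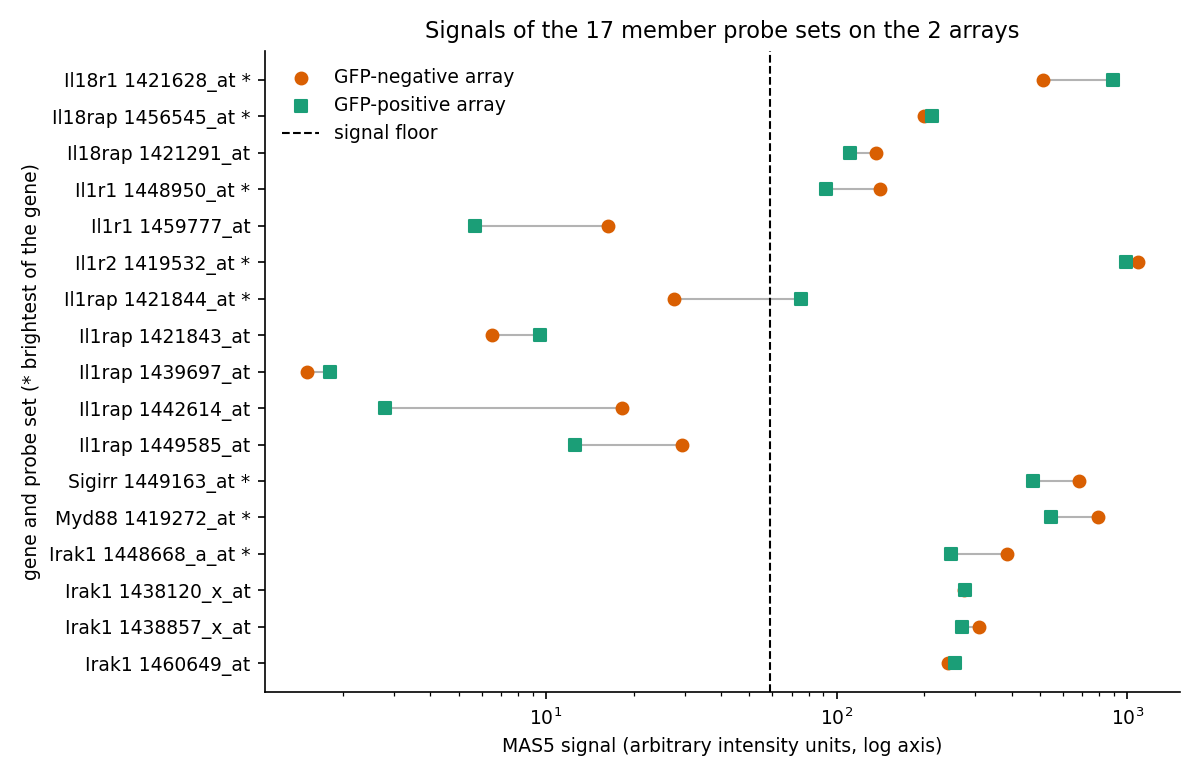
MAS5 signals (log axis) of the 17 probe sets of the family on the array of GFP-positive cells (squares) and that of GFP-negative cells (circles), with 1 point per array and the signal floor as a dashed line. Il18r1 lies to the right in GFP-positive cells (889.9 against 511), while Sigirr, Myd88, Il1r1 and the brightest Irak1 probe set lie to the left. Signals of different probe sets cannot be compared with each other.

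Il18r1, the IL-18-binding chain, showed the largest difference of the family. Its only probe set, 1421628_at, gave 889.9 in GFP-positive against 511 in GFP-negative cells, which is 1.74-fold higher in GFP-positive cells, or 0.80 on the log2 scale. Of all genes above the floor, 4.46% were higher in GFP-positive cells by at least that much. None of the 66 tissue-restricted background genes reached the Il18r1 signal on either array. Probe sets of the same gene differed among themselves by a standard deviation of 0.40 in log2 difference (8402 probe sets from 3289 genes, with both signals above the floor), so the Il18r1 value is 1.98 of these standard deviations. That yardstick holds no variation between mice, sorts or hybridisations.

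Il18rap, the accessory chain that IL-18 signalling requires, did not share this difference. Its brightest probe set, 1456545_at, gave 213 in GFP-positive against 200 in GFP-negative cells (0.09 log2). The further probe set, 1421291_at, gave 111 and 137 (-0.30 log2), so the sign depends on which probe set is read. Relative to Il18rap, the Il18r1 signal was 1.64-fold higher on the GFP-positive array than on the other. Between these arrays the binding chain thus differed more than the accessory chain.

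The genes of the IL-1 receptor itself gave another picture. Il1r1, the signalling receptor for IL-1, had signals of 92.0 in GFP-positive against 140.5 in GFP-negative cells (1448950_at), which is 1.53-fold lower in GFP-positive cells (-0.61 log2). This is a dim probe set: 4 of the 66 background genes reached its signal in GFP-positive cells and 1 in GFP-negative cells. The further Il1r1 probe set, 1459777_at, was below the floor on both arrays (5.70 and 16.3). With the floor doubled, the difference of Il1r1 was -0.26.

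Il1r2, the decoy receptor that takes up IL-1 without signalling, was well above the floor in both populations. Its probe set, 1419532_at, gave 987 in GFP-positive against 1089.6 in GFP-negative cells, which is 1.10-fold lower in GFP-positive cells (-0.14 log2). Of all genes above the floor, 69.8% differed by at least as much in either direction. Neutrophils are another source of Il1r2 transcripts, and among 6 measured neutrophil markers the defining S100a8 (3.40 and 49.6) and S100a9 (2.40 and 32.4) were below the floor on both arrays. Ltf was the only one of the 6 above it, at 87.8 in GFP-positive against 47.1 in GFP-negative cells, which is higher by at least 1.49-fold in GFP-positive cells. On the GFP-positive array 4 of the 66 background genes reached 92.0, above the Ltf signal. The summed signal of the 6 neutrophil markers, signals below the floor included, was 180.3 in GFP-positive against 232 in GFP-negative cells.

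Il1rap, the accessory chain for IL-1 and IL-33, was near the limit of measurement. Of its 5 probe sets, 1421844_at was above the floor, and on the GFP-positive array alone (75.4, against 27.6 on the GFP-negative array), which makes it higher by at least 1.28-fold in GFP-positive cells. The signals of the other 4 probe sets ranged from 1.80 to 12.6 in GFP-positive cells and from 1.5 to 29.3 in GFP-negative cells, and 2 of them were higher and 2 lower in GFP-positive cells. On the GFP-positive array 6 of the 66 background genes had at least the signal of 1421844_at. The median signal of these background genes was itself higher on that array, at 33.6 against 9.60.

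Sigirr, the inhibitory member of the family, was lower in GFP-positive cells. Its probe set, 1449163_at, gave 472 in GFP-positive against 683 in GFP-negative cells, which is 1.45-fold lower (-0.53 log2). Among all genes above the floor, 9.76% were lower by at least that much.

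Myd88, the adaptor that all signalling receptors of the family use, was lower by a similar amount. Its probe set, 1419272_at, gave 545 in GFP-positive against 795 in GFP-negative cells, or 1.46-fold lower (-0.55 log2), and 9.27% of all genes were lower by at least that much. The differences of Myd88 and Sigirr were apart by 0.01 log2. Each of these genes has 1 probe set, so neither value has a further probe set to set beside it. The T cell genes Cd4 and Cd3e were lower in GFP-positive cells as well (257 against 415, and 541 against 862). Cd3d and Cd3g differed less, at -0.02 and -0.17. Any link of these T cell genes to the differences of Myd88 and Sigirr was not tested.

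Irak1, the kinase recruited through Myd88, had 4 probe sets, all above the floor on both arrays, that gave unequal differences. The brightest, 1448668_a_at, had signals of 247 in GFP-positive against 386 in GFP-negative cells, which is 1.56-fold lower in GFP-positive cells (-0.64 log2). It ranks as brightest through the GFP-negative array, since its signal was the lowest of the 4 on the GFP-positive array. The other 3 lay close to 0: 1438857_x_at gave 269.6 and 309.9 (-0.20 log2), 1438120_x_at 276 and 275 (0.00 log2), and 1460649_at 255 and 241.5 (0.08 log2). The brightest probe set thus stands apart from the other 3. Without probe sets whose IDs end in _x_at, _s_at or _a_at, 1460649_at alone remains and the difference of Irak1 is 0.08.

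**Figure D2:**
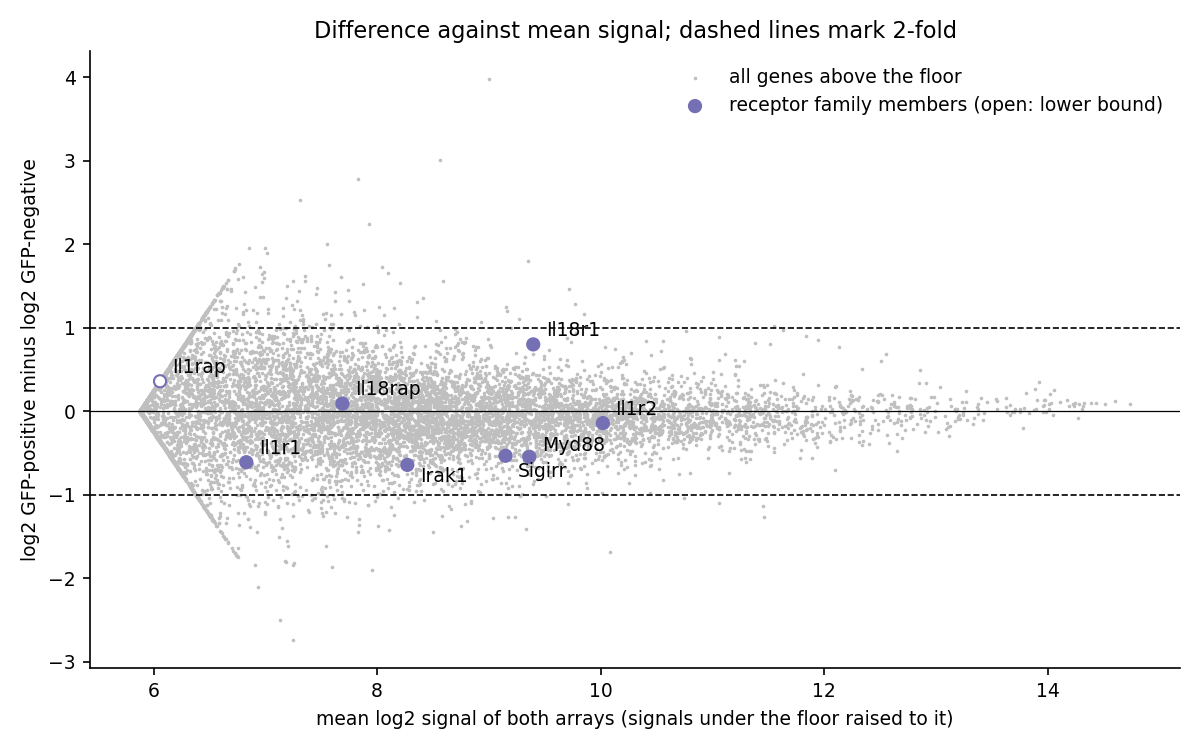
Log2 difference (GFP-positive minus GFP-negative, vertical axis) against mean log2 signal of both arrays (horizontal axis) for the 10672 genes above the floor (grey, brightest probe set) and the 8 family genes (purple, open where the value is a lower bound). All 8 values, of which Il1rap is a bound, lie within the dashed 2-fold lines, with Il18r1 the highest at 0.80 and Irak1 the lowest at -0.64.

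The receptor genes other than Il1rap and Sigirr lie next to each other in the mouse genome. Il1rap is on chromosome 16, and Sigirr is not in this row. In the GRCm38.p6 gene table the protein-coding order on their chromosome is Map4k4, Il1r2, Il1r1, Il1rl2, Il1rl1, Il18r1, Il18rap and Slc9a4. Along this row the differences were 0.07 for Map4k4, -0.14 for Il1r2, -0.61 for Il1r1, at most -0.16 for Il1rl2 (39.7 and 65.5, above the floor on the GFP-negative array alone), 0.80 for Il18r1 and 0.09 for Il18rap, and Slc9a4 was below the floor on both arrays. The neighbours had no common sign: Il18r1 was 2.66-fold apart from Il1r1 in relative signal, with signs opposed.

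Start regions of Il18r1, the gene with the highest difference, and of Myd88, the adaptor with a lower signal, are given so that the motifs can be read in place. Both are the 250 bases before a transcript start, from the RefSeq promoter table (build GRCm38.p6), 5′ to 3′ on the strand of the gene. Capitals mark matches to the STAT motif TTCNNNGAA and, in Myd88, also to the T-box motif GGTGTGA read on the opposite strand.
Il18r1, chr1:40465756-40466005, plus strand: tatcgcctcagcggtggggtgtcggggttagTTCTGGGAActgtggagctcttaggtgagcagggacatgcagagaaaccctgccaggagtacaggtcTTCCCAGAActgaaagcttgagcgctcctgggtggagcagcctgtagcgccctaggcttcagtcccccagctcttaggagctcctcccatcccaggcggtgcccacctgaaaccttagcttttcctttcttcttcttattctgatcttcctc
Myd88, chr9:119340019-119340268, minus strand: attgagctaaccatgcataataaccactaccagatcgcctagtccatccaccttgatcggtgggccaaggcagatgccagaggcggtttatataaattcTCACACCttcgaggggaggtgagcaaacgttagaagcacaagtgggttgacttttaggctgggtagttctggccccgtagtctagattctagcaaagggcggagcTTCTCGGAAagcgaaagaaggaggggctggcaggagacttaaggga

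The Il18r1 window belongs to 1 of 3 listed starts, and this is not the annotated start of the gene. The windows of the other starts, that of the annotated gene start included, held none of the motifs searched. In the window shown the STAT motif begins 219 and 152 bases before the start, and in the Myd88 window 46 bases before it. The table held 11 such windows for 7 of the 8 measured genes, some of them overlapping. Across both strands, TTCNNNGAA was found in 3 of the 11 (Il18r1, Il1r2 and Myd88) and in 7.02% of all 32851 windows of the same length. GGTGTGA was found in 1 of the 11 (Myd88) and in 3.33% of all windows, and the E-box CACGTG in 1 (Il1r2, with 2 matches) and in 6.02%. The forkhead motif TGTTTAC (3.17% of all windows) and the AP-1 motif TGANTCA (6.75%) were in 0 of the 11. These motifs do not overlap each other in the windows shown. A match is a run of letters and says nothing of binding.

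Of 49 further genes of the pathway, 41 had a probe set and 28 were above the floor on at least 1 array. None of the 28 values of the brightest probe sets, of which 5 are lower bounds, reached 1.5-fold. Some further probe sets did, such as 1 of Nfkbia at 0.91. By the brightest probe set, 11 genes were higher and 17 lower in GFP-positive cells, between -0.58 and 0.56, with a median of -0.13. With the mean of all probe sets in place of the brightest, this median was 0.24, so its sign depends on the choice of probe set.

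Ligands and soluble inhibitors of the family were mostly below the floor, in 5 of 7 measured cases. Il1b, which encodes IL-1 beta, was above it on the GFP-negative array alone (21.1 in GFP-positive against 85.2 in GFP-negative cells), lower by at least 1.45-fold in GFP-positive cells. Il18bp, the soluble inhibitor that binds IL-18, gave 81.3 and 66.8, or 1.22-fold higher. Il18 itself was below the floor on both arrays.

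The further kinases and adaptors of the pathway went both ways, with 5 of 10 higher and 5 lower. Map3k7, which encodes the kinase TAK1, gave 171 and 255 (-0.58), but 2 further probe sets gave -0.48 and 0.34. Traf6, the ubiquitin ligase that receives the signal from Irak1, was 1.41-fold higher in GFP-positive cells (172.5 against 122), and its other probe set above the floor on both arrays gave 0.42. Ecsit, an adaptor that binds Traf6, was 1.48-fold higher (218.5 and 148). Map3k3 was 1.30-fold lower (346 and 451) and Tollip, which restrains Irak1, 1.24-fold lower (194.5 and 241).

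Among 6 NF-kappaB and IKK genes, 2 were higher and 4 lower in GFP-positive cells by their brightest probe set. Ikbkb, among the lower at -0.18, had a further probe set above the floor on both arrays at 0.84. Nfkbiz, at 0.12, had 2 further probe sets at 0.41 and 0.80. Nfkbia, which encodes the inhibitor IkappaB-alpha and is itself a target of NF-kappaB, was 1.26-fold higher (8627 and 6833), and its 4 further probe sets were higher too, from 0.14 to 0.91. Ikbkg, the regulatory IKK subunit NEMO, gave 479 and 718 (-0.58), although 3 further probe sets ranged from -0.11 to 0.51. Rela, the p65 subunit, was 1.23-fold lower (1024 and 1262). Of the ubiquitin enzymes, 1 of 5 was higher and 4 were lower.

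Toll-like receptors also signal through Myd88, and 4 of 7 were above the floor, 2 higher and 2 lower. Tlr1 was 1.27-fold higher in GFP-positive cells (815 against 643). Tlr2 (57.2 and 83.1) was at least 1.41-fold lower and Tlr9 (80.6 and 8.20) at least 1.37-fold higher, each above the floor on 1 array. On the GFP-positive array 4 of the 66 background genes reached 92.0, above the Tlr9 signal.

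**Figure D3:**
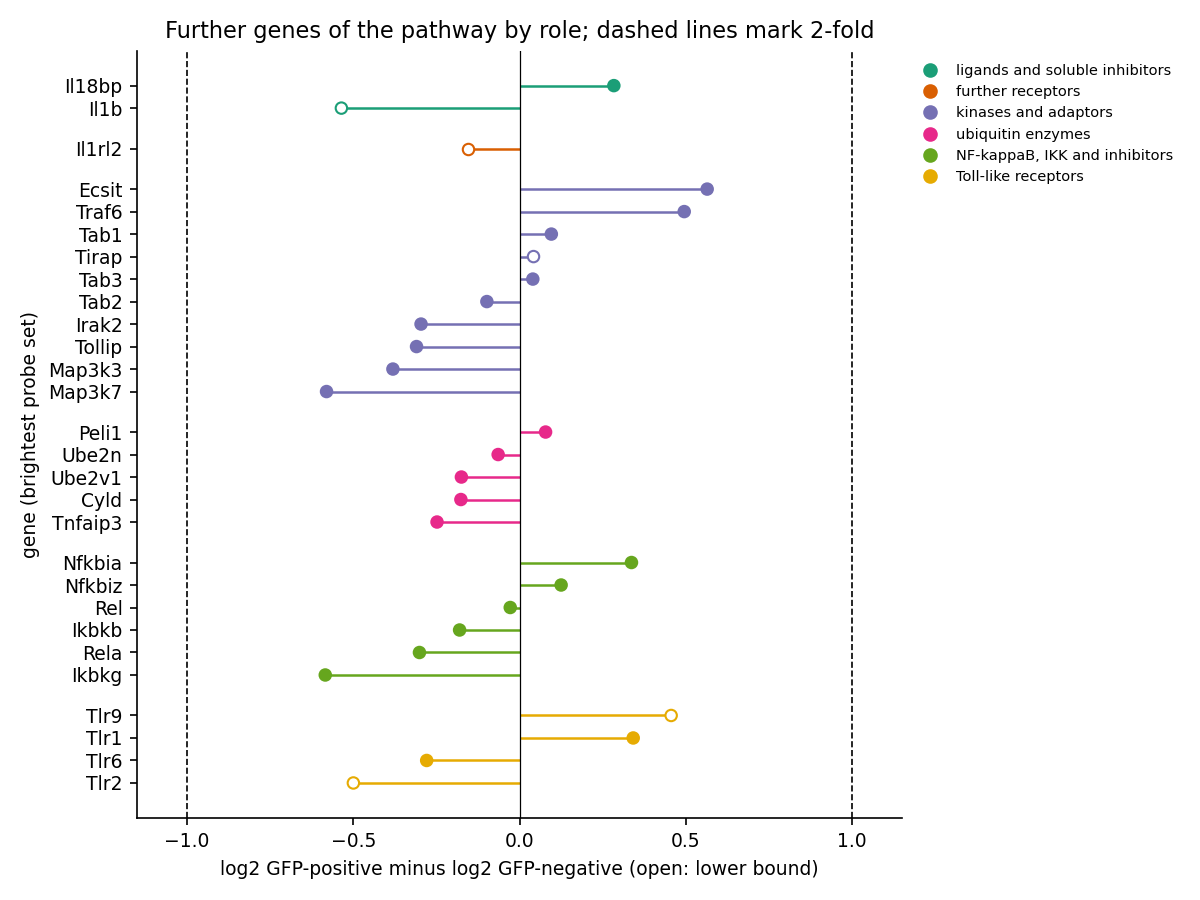
Log2 difference (GFP-positive minus GFP-negative) of the 28 further pathway genes above the floor, 1 point per gene (brightest probe set), grouped and coloured by role and open where the value is a lower bound on its size. All lie inside the dashed 2-fold lines, 11 to the right and 17 to the left of 0.

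Helper lineage genes that act beside these receptors showed no common direction. Among Th1 partners, Stat4, which carries the IL-12 signal that acts together with IL-18, was 1.77-fold lower in GFP-positive cells (1137 against 2016), and Ifng, the cytokine that IL-12 and IL-18 induce, 2.11-fold lower (316 and 667). Il12rb1, an IL-12 receptor chain, gave 125 and 110.0, and Tbx21 55.7 and 69.6, above the floor in GFP-negative cells alone and lower by at least 1.18-fold in GFP-positive cells. Il18r1 and Stat4 thus had opposite signs. Of the Th2 partners, Gata3 gave 783 and 757 and Il4 2123 and 1920.5. Il5 (66.6 and 6.10) and Il13 (12.6 and 98.5) were each above the floor on 1 array, which bounds Il5 at no less than 1.13-fold higher and Il13 at no less than 1.68-fold lower in GFP-positive cells. On the GFP-positive array 6 of the 66 background genes had at least 75.4, above the Il5 signal. Ccr6, a receptor of Th17 cells and of some regulatory T cells, was 2.47-fold higher in GFP-positive cells (516 against 209).

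Natural killer cells also carry the IL-18 receptor. Of 5 measured markers of them, Gzma (1153 and 850.5) and Klrd1 (148.5 and 103.5) were higher in GFP-positive cells, as Il18r1 was, and Prf1 was lower (48.1 and 61.5). The defining receptor gene Ncr1 was below the floor on both arrays (1.70 and 5.90), as was Klre1 (37.1 and 20.6). The summed signal of the 5, most of it from Gzma, was 1388 and 1042. Activated T cells also express Gzma, and the part of these genes in the Il18r1 difference was not tested. All 7 measured mast cell and basophil markers, cells that carry ST2 and Il1rap, were below the floor, between 5.90 and 22.8 in GFP-positive and between 4.20 and 45.1 in GFP-negative cells. Myeloid cells and B cells also use Myd88. Of 8 macrophage and monocyte markers, 4 were above the floor on at least 1 array. Adgre1 (94.3 and 79.1), Csf1r (83.9 and 43.5) and Itgam (64.9 and 39.1) were higher in GFP-positive cells and Fcgr3 (35 and 125.8) was lower, while Cd14 and Lyz2 were below the floor on both arrays. Csf1r and Itgam were above the floor on the GFP-positive array alone, where 4 of the 66 background genes reached 92.0. The summed signal of all 8 macrophage and monocyte markers, signals below the floor included, was 339.9 in GFP-positive against 393 in GFP-negative cells. Of 5 measured B cell markers, 2 were above the floor. Cd22 was 2.39-fold lower in GFP-positive cells (98.3 against 235). Its further probe set was below the floor on both arrays (6.3 and 1.9). Ms4a1, above the floor in GFP-positive cells alone, gave 59.7 and 46.4. Outside this list, the B cell gene Cd79b was higher in GFP-positive cells (1.65 log2). Cd79a and Pax5 were below the floor on both arrays. The summed signal of the 5 listed markers, of which Cd22 was the largest on each array, was 200 against 392. The part of these cells in the Myd88 difference was not tested. In RNA of sorted populations, fewer cells that express a gene and less RNA per cell cannot be told apart.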

How the data were processed

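Messenger RNA of 2 sorted populations was measured on 1 Affymetrix array each. The deposited intensity values, 1 per probe set and array, were made with MAS5, per the submitters' processing notes; no version or detection call is named in these notes. The 2% trimmed mean was 150.0 on both arrays, so they had been scaled before deposit, and no further scaling was applied. Of 45101 probe sets, 34958 had 1 gene symbol in the platform annotation, 932 several and 9211 none, and only the first entered (18193 genes, without control probe sets). Updating symbols by gene identifier matched 34754 probe sets and altered 0.

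The floor was the 90th percentile of the signals of 109 probe sets of 66 measured genes, out of 74 listed, that are restricted to other tissues. Of these 66 genes, 15 passed it by their brightest probe set. A gene above the floor on 1 array only has a lower bound. The background genes had a higher median signal on the GFP-positive array (33.6 against 9.60). The floor is common to both arrays and does not allow for this, so a bound that rests on the GFP-positive array alone is weaker. With 1 array per group no test was run, and the number of arrays limits the precision. All family genes were named; of the further pathway genes, the 12 with the largest difference and each ligand, soluble inhibitor or further receptor of the IL-1 family above the floor, and genes of the marker and helper lineage lists. Il18, Ikbkb, Nfkbiz and Cd79b were named after their values were seen. The family and the lists were chosen with earlier results of these data known. Python 3.11.15, pandas 2.3.3 and statsmodels 0.14.6 were used.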

Additional observations from a re-analysis of the deposited data

How the results depend on the processing

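The counts and medians were recomputed with the floor doubled, without a floor, after quantile normalization, after loess and at 1.5-fold. They were also recomputed with the mean of all probe sets of a gene, and without probe sets whose IDs end in _x_at, _s_at or _a_at. Without a floor, 1 of 8 family genes (Il1rap, at 1.45 log2) was at least 2-fold higher. Of 41 further pathway genes, 5 were then at least 2-fold higher and 6 lower. Over all 18193 genes in that setting, 3305 were at least 2-fold higher and 2420 lower. With probe sets averaged, 1 of 24 further pathway genes was at least 2-fold higher, as were 247 of all 8736 genes. At 1.5-fold, 1 family gene was higher and 2 lower, beside 1003 and 854 of all 10672 genes. The family median ranged from -0.34 to -0.03, the latter without the probe sets of these ID endings, where Irak1 stood at 0.08. Il18rap was -0.10 with probe sets averaged. Il18r1, Il1r1, Il1r2, Il1rap, Sigirr and Myd88 kept their sign under each alternative that gave a value, with Il18r1 between 0.80 and 0.85. With probe sets averaged, Il1r1 and Il1rap fell below the floor and gave no value, so their signs were not tried there. Il1rap also gave none with the floor doubled. For Il18r1, Il1r2, Sigirr and Myd88, with 1 probe set each and signals above the doubled floor, only quantile normalization and loess could change the value. The other alternatives returned the same value by construction. The median of all genes moved by less than 0.1 under each. No paired analysis was possible because each group has 1 array. Low signals limit Il1r1 and Il1rap most.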
